A study of Mus musculus with 16 samples.

Results

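Kidneys of 50-week-old SAMP1 mice were compared with kidneys of 50-week-old SAMR1 mice. SAMP1 is a senescence-accelerated prone line, and SAMR1 is the senescence-accelerated resistant line kept as its control. They are separate inbred lines, so a difference between them is a difference between whole genomes. The comparison took the 8 arrays whose labels give an age of 50 weeks, 4 for SAMP1-50wk and 4 for SAMR1-50wk, out of 16 arrays in all. The other 8 arrays were from 10-week-old mice of both lines. They set the strain difference at 50 weeks against that at 10 weeks. They also entered the scaling, the choice of miRNAs tested and the estimate of spread behind every limma p-value. All mice were male, untreated and fed normal chow, and each array held RNA from the renal cortex of 1 numbered animal. The SAMR1-50wk animals were numbers 2, 6, 9 and 12 and the SAMP1-50wk animals were numbers 1, 2, 4 and 11, and values are given in this order throughout. The 8 arrays lay on 1 slide, SAMP1-50wk in its row 1 and SAMR1-50wk in its row 2, so that strain and slide row cannot be told apart.

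miRNAs are short RNAs that are cut from hairpin precursors, loaded into Argonaute proteins and lower the output of mRNAs that pair with their seed, bases 2 to 8 counted from the 5′ end. miRNAs with the same seed share most of their predicted targets, and most families are defined by it. Several miRNAs are made mainly in 1 kind of cell. miRNA-142a, miRNA-155, miRNA-150, miRNA-342 and miRNA-223 are known from leukocytes, miRNA-451a and miRNA-144 from erythroid cells, and miRNA-192, miRNA-194, miRNA-204 and miRNA-10 from renal tubules. Kidneys lose function with age while glomeruli scar and the interstitium fibroses, and the study used aged SAMP1 mice as a model of that loss.

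The sequences of the miRNAs on which the results turn are shown with their seeds in capitals, from RefSeq on the mouse build GRCm38.p6. The first set is that of the leukocyte and erythroid miRNAs with the largest differences.
miRNA-142a-3p: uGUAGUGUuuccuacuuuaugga
miRNA-142a-5p: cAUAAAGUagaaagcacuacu
miRNA-155-5p: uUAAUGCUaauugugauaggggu
miRNA-342-3p: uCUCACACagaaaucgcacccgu
miRNA-451a: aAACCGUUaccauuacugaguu
miRNA-144-3p: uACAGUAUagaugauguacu
The arms of miRNA-142a lie at chr11:87756903-87756925 and chr11:87756867-87756887 on the plus strand, 2 products of 1 hairpin. miRNA-144-3p (chr11:78073047-78073066) and miRNA-451a (chr11:78073186-78073207) come from neighbouring genes on the plus strand. miRNA-342-3p lies within the protein-coding gene Evl (chr12:108658680-108658702, plus strand) and miRNA-155-5p within the long noncoding RNA Mir155hg (chr16:84714143-84714165, plus strand).

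The second set holds families whose members share a seed but differed in their results, with miRNA-181 and miRNA-193 members past the adjusted p in both directions, and miRNA-132-3p past it where miRNA-212-3p was not.
miRNA-181a-5p: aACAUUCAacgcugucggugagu
miRNA-181b-5p: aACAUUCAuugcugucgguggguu
miRNA-181c-5p: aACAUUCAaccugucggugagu
miRNA-181d-5p: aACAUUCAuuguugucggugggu
miRNA-193a-3p: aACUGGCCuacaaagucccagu
miRNA-193b-3p: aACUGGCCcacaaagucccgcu
miRNA-132-3p: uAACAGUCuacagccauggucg
miRNA-212-3p: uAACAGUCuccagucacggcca
miRNA-181c-5p and miRNA-181d-5p come from 1 locus on the minus strand (chr8:84178924-84178945 and chr8:84178759-84178781). miRNA-181a-5p and miRNA-181b-5p come together from a locus on chromosome 1 (chr1:137966468-137966490 and chr1:137966650-137966673, plus strand) and from another on chromosome 2 within Nr6a1. miRNA-193a-3p lies on chromosome 11 (chr11:79712009-79712030, plus strand) and miRNA-193b-3p on chromosome 16 (chr16:13449570-13449591, plus strand). miRNA-212-3p (chr11:75173443-75173464) and miRNA-132-3p (chr11:75173723-75173744) are neighbours on the plus strand.

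The third set holds miRNA-503-5p, which the study followed up in other kidney models, and members of the miRNA-378 family, whose tested members all fell.
miRNA-503-5p: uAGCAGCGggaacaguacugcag
miRNA-378b: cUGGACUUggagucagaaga
miRNA-378c: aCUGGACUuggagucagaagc
miRNA-378d: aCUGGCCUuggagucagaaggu
miRNA-503-5p lies on the minus strand of the X chromosome (chrX:53054027-53054049) within the long noncoding RNA C430049B03Rik, close to Mir322. The 3 miRNA-378 members are grouped by name, since their seeds are not the same. They share a run of 14 bases, cuuggagucagaag, and come from chr11:88352839-88352858 within Msi2, chr14:46954905-46954925 within Samd4 and chr10:126710355-126710376. A probe for 1 of them could bind the others, so that their signals may not be independent, which was not tested. miRNA-181b-5p and miRNA-181d-5p are the same at 22 of 23 positions, and binding of their probes to each other's target was not tested. Of the 381 tested miRNAs, 323 had a mature sequence in the RefSeq table.

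The array holds 1881 mouse miRNAs, in 56430 spots read in 1 colour (Cy3). The value used here is the total gene signal, the intensity summed over the probes of a miRNA after the scanner software subtracted the background. Scaling divided each array by its 90th percentile among the 322 miRNAs that every 1 of the 16 arrays detected. A signal below the array's lowest detected one was raised to it, so an undetected miRNA enters as a limit. Per array, 352 to 390 miRNAs were detected in SAMR1-50wk and 383 to 445 in SAMP1-50wk (difference of means 37.25, exact permutation test, two-sided, p = 0.0571). Before scaling, the summed signal was 98617 ± 10293 (SD, n = 4) in SAMR1-50wk and 147544 ± 27606 in SAMP1-50wk, 1.50 times as high, and the groups did not overlap (exact permutation test, p = 0.0286, the smallest that 4 against 4 allow). The spike-in controls had medians of 2474 to 2554 and 2399.7 to 2624, which overlapped (exact permutation test, p = 0.714). The local background was 23.1 to 23.6 in SAMR1-50wk and 23.9 to 24.5 in SAMP1-50wk, without overlap (exact permutation test, p = 0.0286). Its part in the results was not tested. Scaling removes the overall difference in summed signal, and every fold change below is relative to it. Within a group, 2 arrays correlated at r of 0.985 to 0.996 across these 322 miRNAs, which are not independent replicates. SAMP1-50wk animal 2 stood apart from its group. It held the lowest value of the 4 for 176 of 334 miRNAs detected on all 8 arrays, and its root mean square distance from the group median was 0.38 on the log2 scale, against 0.15 to 0.21 for the other 3. In SAMR1-50wk this distance was largest for animal 2, at 0.34, against 0.15 to 0.23. No spot was saturated.

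In all, 16 of the 381 tested miRNAs (4.2%) passed the threshold at 50 weeks, 15 higher (3.94%) and 1 lower (0.262%) in SAMP1-50wk. The threshold was an adjusted p under 0.05 from limma with Benjamini-Hochberg adjustment and a fold change over 2. Of the miRNAs known from leukocytes 5 of 8 tested members passed, and of those known from erythroid cells 2 of 2, all of them higher. miRNA-342-3p among them entered the test only through SAMP1 arrays, where it was high, as did other higher miRNAs named below. Strain-higher miRNAs with no such cell type included miRNA-132-3p, miRNA-503-5p, miRNA-205-5p, miRNA-181d-5p and miRNA-3095-3p. Without the limit on the fold 75 passed (19.7%), of which 29 were higher (7.61%) and 46 lower (12.1%), while the median difference of all tested miRNAs was -0.06 on the log2 scale. The groups did not overlap in 15 of the 16, the exception being miRNA-205-5p. Among all tested miRNAs they did not overlap in 21.8% (8.14% higher and 13.6% lower), but the 16 were picked by this same difference, so the count is only a description. Of the 16, 6 were detected on all 8 arrays. In a fit of the 8 arrays of 50-week-old mice alone, within their slide, 14 of the 16 passed. Those lost were miRNA-205-5p and miRNA-6939-5p. The count was 26 without SAMR1-50wk animal 6 and 28 without SAMP1-50wk animal 11, and it was 16 without SAMP1-50wk animal 2, with 15 of the original 16 among them.

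**Figure D1:**
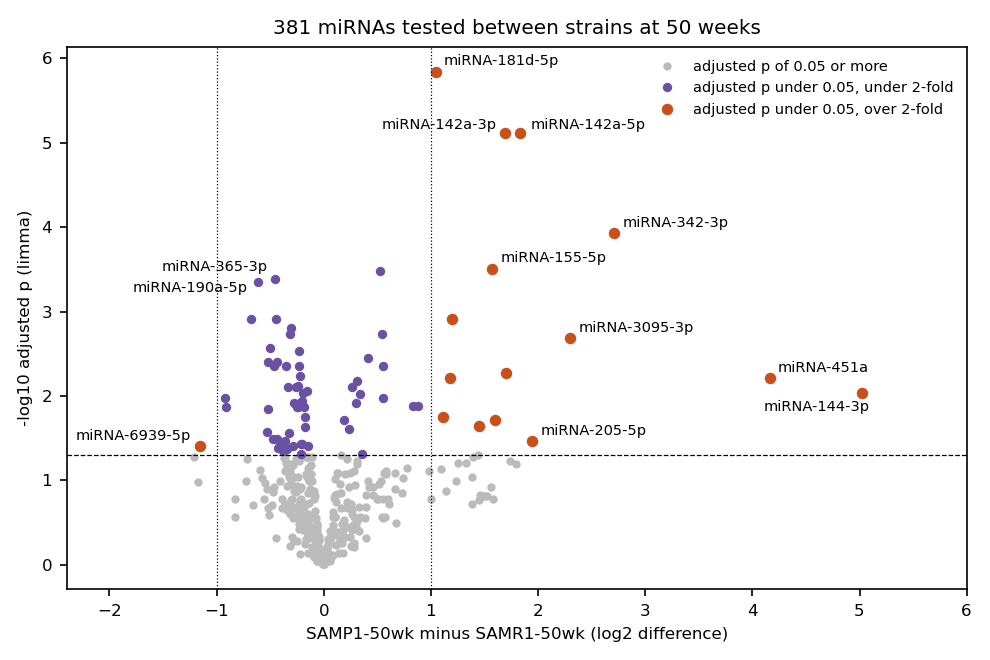
Each point is 1 of the 381 tested miRNAs, with the log2 difference of SAMP1-50wk minus SAMR1-50wk on the x axis and the -log10 of limma's adjusted p on the y axis. The dashed line marks an adjusted p of 0.05 and the dotted lines mark 2-fold. The 15 points past both thresholds on the right include miRNA-451a and miRNA-144-3p far to the right, and 1 point, miRNA-6939-5p, lies past both on the left.

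**Figure D2:**
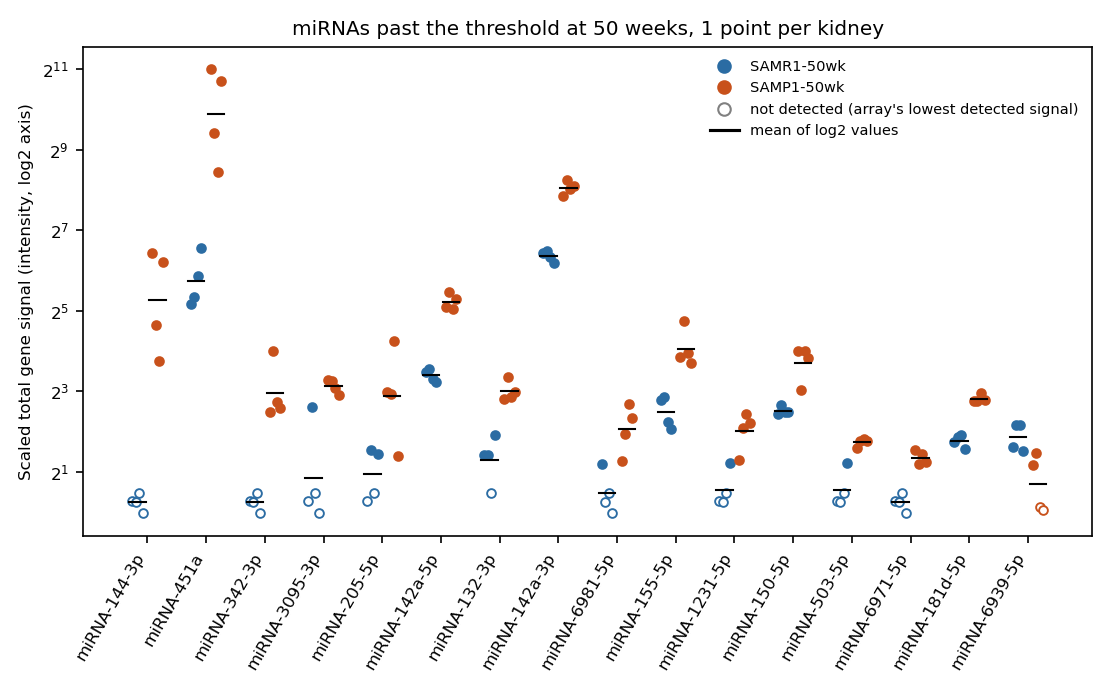
Scaled total gene signal (log2 axis) of the 16 miRNAs past the threshold, with 1 point per kidney, blue for SAMR1-50wk and orange for SAMP1-50wk. Open circles are arrays that did not detect the miRNA, drawn at the array's lowest detected signal, and bars are means of the log2 values. In 15 of the 16 the points of the 2 groups do not overlap.

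The largest differences were those of the erythroid miRNAs. miRNA-451a, which matures through Argonaute 2 without Dicer and accumulates in red cells, was 35.8, 40.6, 58.5 and 94.7 in SAMR1-50wk and 2049.6, 689, 349.6 and 1668 in SAMP1-50wk. The groups did not overlap, with animals 1 and 11 highest. The log2 difference was 4.16 (standard error 0.90, limma's adjusted p = 0.00618), a ratio of 17.9. miRNA-144-3p, transcribed next to it, was detected on no SAMR1-50wk array and was 86.9, 24.9, 13.6 and 73.9 in SAMP1-50wk, with the same animals highest. With SAMR1-50wk at each array's own lowest detected signal, the log2 difference was 5.02 (standard error 1.18, adjusted p = 0.00912 from limma). Its size depends on that floor and on the signal used, and it is no limit. Against 1 floor common to all arrays, the highest of the arrays' floors, it was 4.62, and its probes gave 4.33 and 4.25. With the processed signal of the spots the log2 difference of miRNA-144-3p was 3.98 and past the threshold. The call was lost with normexp (0.97, below 2-fold) and with the methods' analysis of variance and Tukey's test after Benjamini-Hochberg adjustment (adjusted p = 0.0616). The other members on the array, miRNA-144-5p and miRNA-486a-5p, were each detected on 3 of 4 SAMP1-50wk arrays and on 0 of 4 SAMR1-50wk arrays, and were not tested. The summed signal of the erythroid list ranged from 35.8 to 94.7 in SAMR1-50wk and from 363 to 2161 in SAMP1-50wk. The study's methods describe a flush with phosphate-buffered saline for the kidneys used in histology and in the inhibitor experiments, and do not name it for the array kidneys. The part of red cells in the other results was not tested.

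The leukocyte miRNAs were higher in SAMP1-50wk in 6 of 8 tested members (7.61% of all tested miRNAs), 5 of them more than 2-fold (3.94%), and the median log2 difference of the list was 1.38 against -0.06 for all tested miRNAs. With the normexp background correction it was 0.06 against -0.25, and 3 of the 8 differences were negative. miRNA-142a-3p, a miRNA of all blood cell lineages, was 85.9, 89.0, 80.8 and 73.0 in SAMR1-50wk and 229, 305, 259 and 274 in SAMP1-50wk. Within each group the values lay close together and the groups were far apart, at a log2 difference of 1.69 (standard error 0.15, adjusted p = 7.7e-06 from limma), or 3.23-fold. Its other arm, miRNA-142a-5p, was 11.2, 11.7, 9.88 and 9.39 against 34.4, 44.1, 32.8 and 39.4. The groups were again apart in every kidney, by 3.56-fold (log2 difference 1.83, standard error 0.17). With normexp the log2 difference of miRNA-142a-5p was 0.56, below 2-fold. In bulk tissue, more cells of a type and more RNA per cell cannot be told apart.

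miRNA-155-5p, which is induced in activated macrophages and lymphocytes, was 6.90, 7.25, 4.72 and 4.19 in SAMR1-50wk and 14.4, 26.9, 15.4 and 13.0 in SAMP1-50wk. The groups did not overlap, and animal 2 was the highest. The log2 difference was 1.57 (standard error 0.21, adjusted p = 0.000311 from limma) and 1.34 without animal 2. With normexp it was 0.12 and did not pass (adjusted p = 0.198 from limma). No SAMR1-50wk array detected miRNA-342-3p, which was 5.58, 16.1, 6.62 and 6.05 in SAMP1-50wk, all above the limits of detection of the other group and highest in animal 2. The log2 difference was 2.71 against the arrays' own floors (adjusted p = 0.000119 from limma), 2.36 without animal 2 and 2.31 with the common floor. With the processed signal it was 1.28, and its probes gave 1.27 and 1.31. miRNA-150-5p, abundant in mature lymphocytes, was 5.44, 6.33, 5.64 and 5.59 against 16.1, 8.198, 16.0 and 14.1. The groups did not overlap. Here animal 2 was the lowest of its group, and the log2 difference of 1.19 (standard error 0.20) was 1.42 without it. With the processed signal it was 0.83, below 2-fold.

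miRNA-223-3p, a miRNA of neutrophils and monocytes, was 48.0, 49.4, 50.7 and 45.1 against 52.7, 93.0, 80.2 and 63.3. The groups did not overlap, but their log2 difference was below 2-fold, at 0.55 (standard error 0.13, limma's adjusted p = 0.0106). It did not pass at the adjusted p in the fit of the 8 arrays alone (adjusted p = 0.108). miRNA-146a-5p and miRNA-146b-5p, induced by NF-κB, had log2 differences of 0.26 and 0.66 with groups that overlapped, and neither passed (adjusted p = 0.19 and 0.127 from limma). Without animal 2 these were 0.08 and 0.40. Of the remaining members, miRNA-223-5p and miRNA-342-5p were detected on none of the 8 arrays. The summed signal of the leukocyte list was 181 to 215 in SAMR1-50wk and 396 to 579 in SAMP1-50wk. The kidneys with the highest leukocyte and the highest erythroid signals were not the same, since animal 2 led the former and animal 1 the latter.

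**Figure D3:**
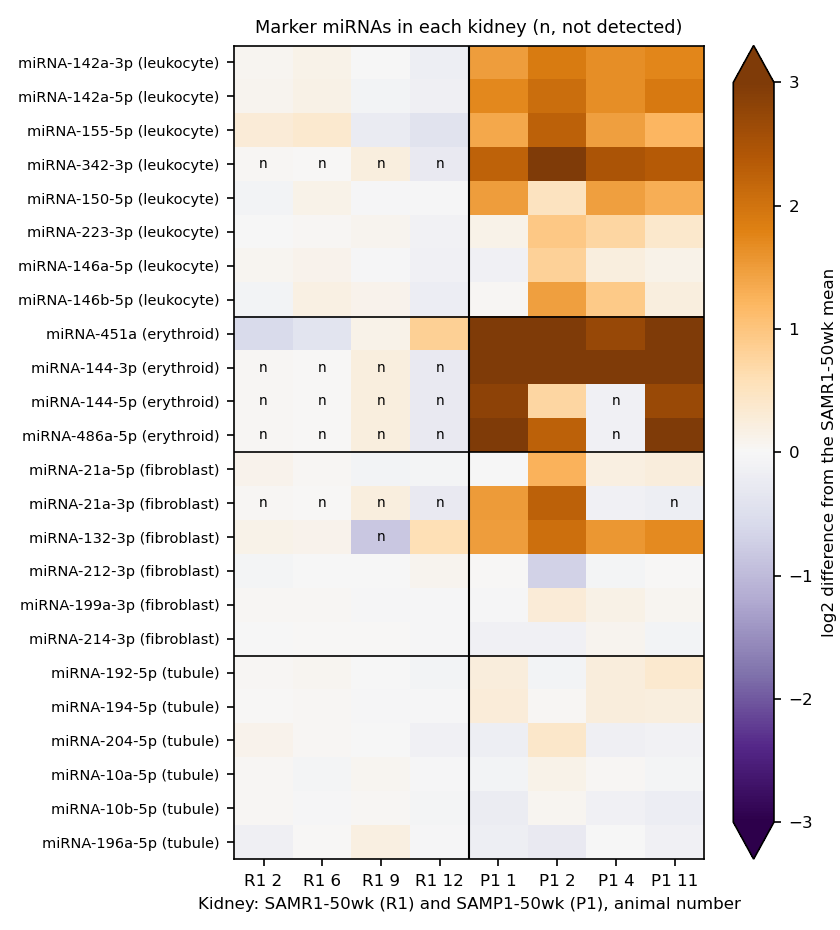
Each row is a marker miRNA and each column is 1 kidney, with the colour giving the log2 difference from the SAMR1-50wk mean (scale ends at -3 and 3) and n an array that did not detect the miRNA. The leukocyte and erythroid rows past the threshold are dark in the SAMP1-50wk columns, at mean log2 differences of 1.19 to 5.02, while miRNA-146a-5p (0.26) is about as pale as the tubule rows (-0.15 to 0.20).

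As to the labelled tissue, 6 of 7 miRNAs known from renal tubules were detected on all 8 arrays and tested, with a median log2 difference of 0.00. None passed the 2-fold threshold, against 4.2% of all tested miRNAs, and 6 members are too few to read more from it. miRNA-192-5p was 980.4, 983, 936 and 900.0 against 1133, 891, 1133 and 1226, and the groups overlapped (log2 difference 0.20, adjusted p = 0.0835 from limma). Without SAMP1-50wk animal 2, the lowest of all 8, it passed at the adjusted p (0.29, adjusted p = 0.000699 from limma). miRNA-10b-5p, at -0.13, also passed without that animal, at -0.19 (adjusted p = 0.0138 from limma). miRNA-194-5p, whose gene copy Mir194-2 lies near Mir192 and copy Mir194-1 near Mir215, was 385, 390.0, 369.9 and 373 against 455, 388, 449 and 442. All but SAMP1-50wk animal 2 lay above SAMR1-50wk, and the log2 difference of 0.19 passed at the adjusted p alone (0.0192 from limma). It did not pass in 8 of 17 other settings, quantile normalization and both other percentiles among them, nor without SAMP1-50wk animal 1 (adjusted p = 0.0509). miRNA-204-5p, which is also made in the eye and the choroid plexus, had a log2 difference of 0.00 (standard error 0.12), and of -0.14 without animal 2, which did not pass.

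Markers of liver, muscle, brain and islets gave 2 tested members of 7, with 3 detected on none of the 8 arrays, and neither passed. Of the endothelial and smooth muscle miRNAs, miRNA-143-3p was 113 to 134 in SAMR1-50wk and 139 to 166 in SAMP1-50wk. The groups did not overlap at a log2 difference of 0.30 (standard error 0.07, adjusted p = 0.0121 from limma), below 2-fold. It did not pass at the adjusted p in 5 of 17 other settings, the authors' scaling and the 8 arrays alone (adjusted p = 0.0883) among them. The other 3 members of that list did not pass. Of the miRNAs used as references in qRT-PCR, miRNA-423-5p had a log2 difference of 0.03 (standard error 0.06) and miRNA-16-5p of -0.06 (standard error 0.05), and neither passed.

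Among 7 tested miRNAs linked to fibroblasts and fibrosis, 1 passed the threshold, against 4.2% of all tested miRNAs. It was miRNA-132-3p, which CREB induces and which is known from activated fibroblasts and neurons. miRNA-132-3p was 2.68, 2.66, undetected and 3.75 in SAMR1-50wk and 6.97, 10.2, 7.28 and 7.96 in SAMP1-50wk. No value overlapped, and the log2 difference was 1.70 (standard error 0.36, limma's adjusted p = 0.00528). It was 0.82, below 2-fold, with the processed signal, and -0.14 with normexp, which did not pass (adjusted p = 0.142). miRNA-212-3p, its neighbour with the same seed, was 58.4, 60.6, 60.4 and 65.2 against 61.2, 37.8, 59.0 and 61.4, a log2 difference of -0.18 (standard error 0.14, adjusted p = 0.298 from limma). It was -0.01 without SAMP1-50wk animal 2.

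miRNA-21a-5p, the miRNA most often linked to renal fibrosis, was 1393, 1328, 1229.5 and 1243 in SAMR1-50wk and 1277, 3071, 1498 and 1539 in SAMP1-50wk. A single kidney, that of animal 2, stood far above the rest. The log2 difference was 0.42 (standard error 0.19, adjusted p = 0.12 from limma), and 0.14 without that animal. The miRNA-29 family, which targets collagen mRNAs, had log2 differences of -0.09 to 0.07 in its 3 members, and 0 of 3 passed. miRNA-199a-3p and miRNA-214-3p did not pass either.

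miRNA-503-5p, of the extended miRNA-16 seed group, was detected on 1 of 4 SAMR1-50wk arrays, at 2.33 in animal 12, and was 2.99, 3.42, 3.52 and 3.41 in SAMP1-50wk. The log2 difference was 1.18 (standard error 0.26, adjusted p = 0.00621 from limma), and the groups did not overlap. All these signals lay near the lowest detected ones. The difference was 0.58, below 2-fold but past the adjusted p (0.00081), with the processed signal. After quantile normalization it was 0.57 and did not pass at the adjusted p either (0.182 from limma). It was also below 2-fold with a common floor for all arrays (0.95). With normexp it was -0.24 (adjusted p = 0.0305 from limma), at the median of all tested miRNAs in that setting, -0.25, where 233 of 381 passed as lower. Both of its probes gave a positive difference, 0.85 and 0.54. Its tested cluster neighbours did not pass at 50 weeks. miRNA-322-5p was 119.9, 118, 115 and 110.3 against 109, 125, 116 and 115, with a log2 difference of 0.00 (standard error 0.06). For miRNA-450a-5p it was 0.12 (adjusted p = 0.146 from limma), although the groups did not overlap. At 10 weeks both passed at the adjusted p, with log2 differences of 0.25 and 0.23 (0.0292 and 0.0425 from limma). Of the 11 members of the cluster on the array 3 were tested and 5 were detected on none of the 8 arrays.

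The 4 tested members of the miRNA-181 family all passed at the adjusted p (19.7% of all tested miRNAs), 2 higher and 2 lower, although they share a seed. miRNA-181d-5p was 3.34, 3.61, 3.78 and 2.98 in SAMR1-50wk and 6.81, 6.71, 7.77 and 6.89 in SAMP1-50wk. The groups were well apart, with a log2 difference of 1.04 (standard error 0.08, adjusted p = 1.44e-06 from limma). The difference was just under 2-fold without SAMR1-50wk animal 12 (0.98) or SAMP1-50wk animal 4 (0.995). It was also under 2-fold with the other percentiles (0.90 and 0.99), the authors' values (0.94), quantile normalization (0.80) and the processed signal (0.47), and with normexp it was -0.20. miRNA-181c-5p, from the same locus, was 9.29, 8.74, 8.17 and 7.62 against 12.0, 13.1, 12.7 and 10.8, a log2 difference of 0.52 (standard error 0.07).

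The members from the other loci were the lower ones. miRNA-181b-5p was 23.3, 23.6, 24.7 and 21.8 in SAMR1-50wk and 19.7, 10.5, 19.6 and 16.8 in SAMP1-50wk. All SAMP1-50wk values were the lower ones, animal 2 by far, and the log2 difference was -0.53 (standard error 0.15, adjusted p = 0.027 from limma) or -0.32 without that animal. It did not pass without SAMR1-50wk animal 9 (adjusted p = 0.0763) or within the slide (adjusted p = 0.156). For miRNA-181a-5p the groups overlapped, and its log2 difference of -0.29 (adjusted p = 0.0388) did not pass in 11 of 16 fits that left out 1 array, with an adjusted p of up to 0.119. With no scaling between arrays both turned positive, at 0.11 for miRNA-181b-5p and 0.35 for miRNA-181a-5p, below the median of 0.57 of all tested miRNAs in that setting.

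A second seed family split in the same manner. miRNA-193b-3p was 12.2, 14.0, 13.2 and 13.5 against 18.6, 15.6, 18.9 and 17.3, higher in every SAMP1-50wk kidney (log2 difference 0.41, standard error 0.08, adjusted p = 0.00353 from limma). miRNA-193a-3p was 321, 328, 310.1 and 299 against 243, 173, 242 and 241, lower in every SAMP1-50wk kidney (log2 difference -0.50, standard error 0.09, adjusted p = 0.00267 from limma). Within the slide miRNA-193a-3p did not pass at the adjusted p (0.0532 from limma). Its other arm, miRNA-193a-5p, was also lower, at -0.68. miRNA-365-3p, whose gene copies lie near Mir193a and Mir193b, was 213, 207, 202 and 203 against 153, 133, 156 and 163, a log2 difference of -0.45 (standard error 0.06, adjusted p = 0.000413 from limma). With no scaling the differences of miRNA-193a-3p and miRNA-365-3p were 0.14 and 0.19, again below the median of all tested miRNAs. Of 34 seeds with at least 2 tested members, 17 had a member past the adjusted p, and 2 had members past it in both directions, those of miRNA-181 and of miRNA-193.

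**Figure D4:**
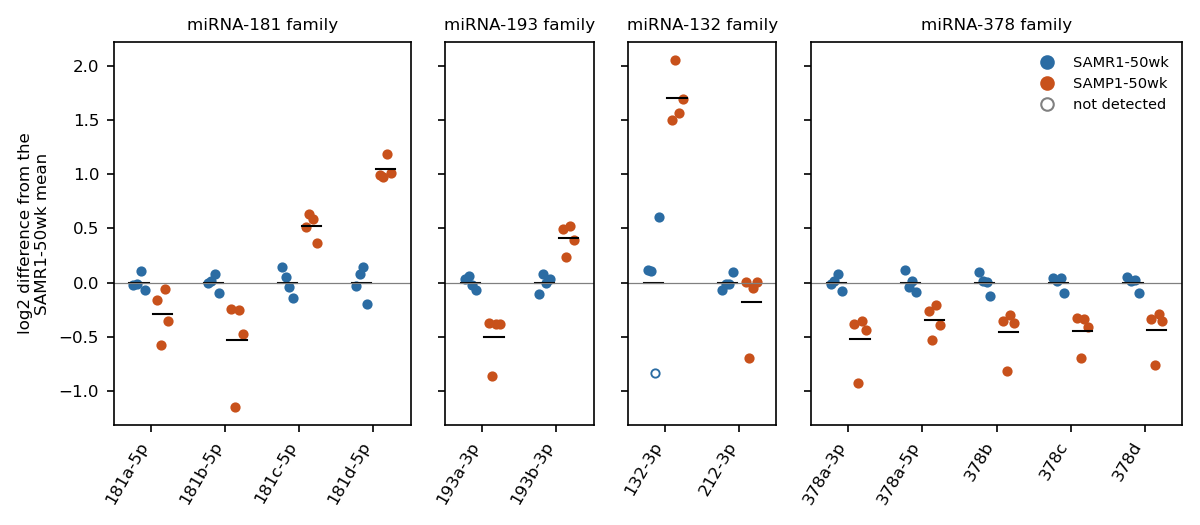
Points are kidneys, blue for SAMR1-50wk and orange for SAMP1-50wk, and bars are group means, as log2 differences from the SAMR1-50wk mean (an open circle is an array that did not detect the miRNA). In the miRNA-181 and miRNA-193 families the SAMP1-50wk means lie on both sides of 0, from -0.53 to 1.04, and in the miRNA-378 family all 5 lie below it, from -0.52 to -0.35.

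The miRNA-378 family, known from mitochondrial metabolism, was lower in all 5 of its tested members, against 12.1% lower among all tested miRNAs. miRNA-378a-5p and miRNA-378b, and the family as a group, were chosen after their values were seen. miRNA-378a-3p was 265, 269, 282 and 253 in SAMR1-50wk and 205, 141, 209 and 198 in SAMP1-50wk, with no overlap and animal 2 lowest (log2 difference -0.52, standard error 0.10, adjusted p = 0.00392 from limma). Without animal 2 it was -0.39 (adjusted p = 0.000316). Its other arm, miRNA-378a-5p, was 22.6, 20.4, 21.1 and 19.7 against 17.4, 14.5, 18.1 and 15.9, a log2 difference of -0.35. For miRNA-378b, miRNA-378c and miRNA-378d, whose probes may share targets, the log2 differences were -0.46, -0.44 and -0.44. The family's median of -0.44 lay 0.38 below that of all tested miRNAs, and below it under each scaling tried. Unscaled, all 5 were positive, at 0.12 to 0.29. Within the slide 1 of the 5, miRNA-378c, passed (adjusted p = 0.0341 from limma).

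The other lower miRNAs described here differed by less than 2-fold. miRNA-190a-5p, carried in Tln2, was 15.9, 14.3, 15.0 and 14.1 against 10.8, 8.18, 9.69 and 10.3, a log2 difference of -0.61 (standard error 0.09, adjusted p = 0.000442 from limma). The let-7 family, which restrains growth genes such as Hmga2, was lower in 5 of 9 members at a median of -0.17, and the miRNA-30 family, common in tubules and podocytes, in 3 of 7 at a median of -0.16, against 12.1% lower among all tested miRNAs. None of these 8 passed within the slide, and miRNA-98-5p of the let-7 family did not pass without SAMP1-50wk animal 2 (adjusted p = 0.0661 from limma). miRNA-429-3p was the 1 of 5 members of the epithelial miRNA-200 family to pass, at -0.20 (standard error 0.05). miRNA-148b-3p, miRNA-324-5p and miRNA-26b-5p were lower by log2 differences of -0.31, -0.31 and -0.23, with no overlap between groups. Within the slide miRNA-429-3p (adjusted p = 0.116 from limma) and miRNA-26b-5p (0.0594) did not pass, nor did miRNA-26b-5p after quantile normalization. Relative to all tested miRNAs, the let-7 median lay 0.11 below, but 0.06 above after quantile normalization and 0.07 above after the normexp correction. The miRNA-30 median lay 0.09 below it, and 0.06 above it after the normexp correction. In all, 59 miRNAs passed at a fold under 2 (14 higher, 45 lower), of which 37 passed with any 1 array left out and 11 within the slide (4 higher, 7 lower).

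Higher at under 2-fold were miRNA-34a-5p, a p53 target, and miRNA-18a-5p of the miRNA-17-92 cluster. miRNA-34a-5p was 154, 134, 137 and 133 in SAMR1-50wk and 203, 195.8, 217 and 196.4 in SAMP1-50wk. The groups were apart by a log2 difference of 0.54 (standard error 0.10, limma's adjusted p = 0.00185), which passed in every other setting and with any 1 array left out. Its relatives miRNA-34b-5p and miRNA-34c-5p did not pass. miRNA-18a-5p was 4.13, 3.51, 3.25 and 3.87 against 7.28, 6.41, 6.82 and 6.53, a log2 difference of 0.88 (standard error 0.22, limma's adjusted p = 0.0133). It was 0.24 and did not pass with the processed signal. It was the 1 of 6 members of its cluster to pass, at a median of 0.14 for the cluster, against 7.61% higher among all tested miRNAs. miRNA-19a-3p had a log2 difference of 0.22 (adjusted p = 0.0562 from limma), and passed at 0.28 without SAMP1-50wk animal 2 (adjusted p = 0.0088 from limma). miRNA-669f-3p, from a mouse cluster in Sfmbt2, had a log2 difference of 0.55 (standard error 0.11), and did not pass at the adjusted p within the slide (0.0519 from limma).

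Of the other miRNAs past the threshold, several lay near the detection limit. miRNA-205-5p, an epithelial miRNA, was detected in SAMR1-50wk animals 6 and 12 at 2.93 and 2.72 and was 7.94, 7.59, 18.9 and 2.62 in SAMP1-50wk. Animal 11 lay within the SAMR1-50wk range (log2 difference 1.95, standard error 0.59, adjusted p = 0.0341 from limma). The call was lost in 5 of 16 fits that left out 1 array, those without SAMR1-50wk animals 2 or 9 or SAMP1-50wk animals 1, 2 or 4, with log2 differences of 1.50 to 2.45 over all 16. miRNA-3095-3p, within Lpar1, was detected in 1 SAMR1-50wk kidney, animal 6, at 6.13, and was 9.73, 9.60, 8.49 and 7.45 in SAMP1-50wk. Its log2 difference of 2.30 (standard error 0.41, adjusted p = 0.00205 from limma) kept its call with any 1 array left out. The call was lost with normexp (-0.09, adjusted p = 0.399 from limma), and its probes gave 1.10 and 1.09.

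miRNA-6981-5p, miRNA-1231-5p and miRNA-6971-5p had log2 differences of 1.59, 1.45 and 1.11, and were detected on 1, 1 and 0 of the SAMR1-50wk arrays at SAMP1-50wk signals of 2.28 to 6.46. For miRNA-6971-5p limma's adjusted p was 0.0179, but the log2 difference was 0.71 with the common floor and 0.97 with the 90th percentile over all miRNAs, under 2-fold in both. Neither miRNA-6981-5p nor miRNA-1231-5p passed without SAMP1-50wk animal 4, nor did miRNA-1231-5p without SAMR1-50wk animal 9. None of the 3 passed with the processed signal. miRNA-6971-5p and miRNA-1231-5p entered the test only through SAMP1-50wk, the group in which they were high. miRNA-6981-5p, miRNA-205-5p, miRNA-3095-3p, miRNA-342-3p and miRNA-503-5p entered it only through SAMP1 arrays of either age. miRNA-6939-5p, within Akt1, was the 1 lower miRNA, at 3.06, 4.45, 4.51 and 2.86 against 2.26, 2.77 and 2 undetected kidneys, those of animals 4 and 11. Its log2 difference of -1.16 (standard error 0.37, adjusted p = 0.0396 from limma) is no limit in size. It entered the test only through SAMR1 arrays, where it was high, and the call was lost in 9 of 16 fits that left out 1 array. miRNA-467a-3p was detected on all SAMP1-50wk and no SAMR1-50wk arrays, at 0.801 to 1.12, below or near the lowest signals of the other arrays. It was tested and did not pass, and no fold is given for it here.

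The same comparison at 10 weeks served to ask which strain differences were present in young kidneys. Since the 10-week arrays lay on another slide, slide and age cannot be told apart, though each strain difference is within a slide. 5 of 381 miRNAs (1.31%) passed the threshold for the difference at 50 weeks minus that at 10 weeks, and all 5 were leukocyte or erythroid miRNAs. miRNA-142a-3p had been 82.5, 108.9, 68.2 and 71.1 in SAMR1-10wk (animals 1, 4, 5 and 7) and 82.8, 75.5, 108.7 and 106 in SAMP1-10wk (animals 3, 4, 5 and 6). The strains overlapped at 10 weeks (log2 difference 0.18), and the difference between ages was 1.51 (standard error 0.22, adjusted p = 0.00286 from limma). It was 1.60 (standard error 0.24) for miRNA-142a-5p and 1.56 (standard error 0.30, adjusted p = 0.0189) for miRNA-155-5p. That of miRNA-155-5p missed the threshold without SAMR1-10wk animal 7, SAMR1-50wk animal 9 or SAMP1-10wk animal 3, with an adjusted p of up to 0.0555. It also missed it with normexp and with no scaling, and that of miRNA-142a-5p missed it with normexp. miRNA-155-5p was 11.2, 11.0, 13.1 and 12.3 in SAMR1-10wk and 11.1, 11.8, 12.6 and 12.3 in SAMP1-10wk. Every SAMR1-50wk value given above lay below all of these, while the SAMP1-50wk values lay above the SAMP1-10wk ones.

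miRNA-451a and miRNA-144-3p stood in the opposite order at 10 weeks, though not past the threshold there. miRNA-451a was 987, 1771, 147 and 312 in SAMR1-10wk and 57.2, 85.9, 337 and 719 in SAMP1-10wk, with wide spread and overlap (log2 difference -1.52, adjusted p = 0.356 from limma). The difference between ages was 5.68 (standard error 1.27, limma's adjusted p = 0.0475). For miRNA-144-3p it was 7.04 (standard error 1.67), at the same adjusted p. It was undetected in SAMP1-10wk animals 3 and 4 and on all SAMR1-50wk arrays, so its value is no limit. The call was lost in 10 of 16 fits that left out 1 array for miRNA-451a and in 11 for miRNA-144-3p, arrays of all 4 groups among them, with adjusted p-values of up to 0.105. Without the limit on the fold 11 passed (2.89%), of which 6 were higher (1.57%) and 5 lower (1.31%), with miRNA-148b-3p at -0.30 and miRNA-26b-5p at -0.26 among the lower.

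**Figure D5:**
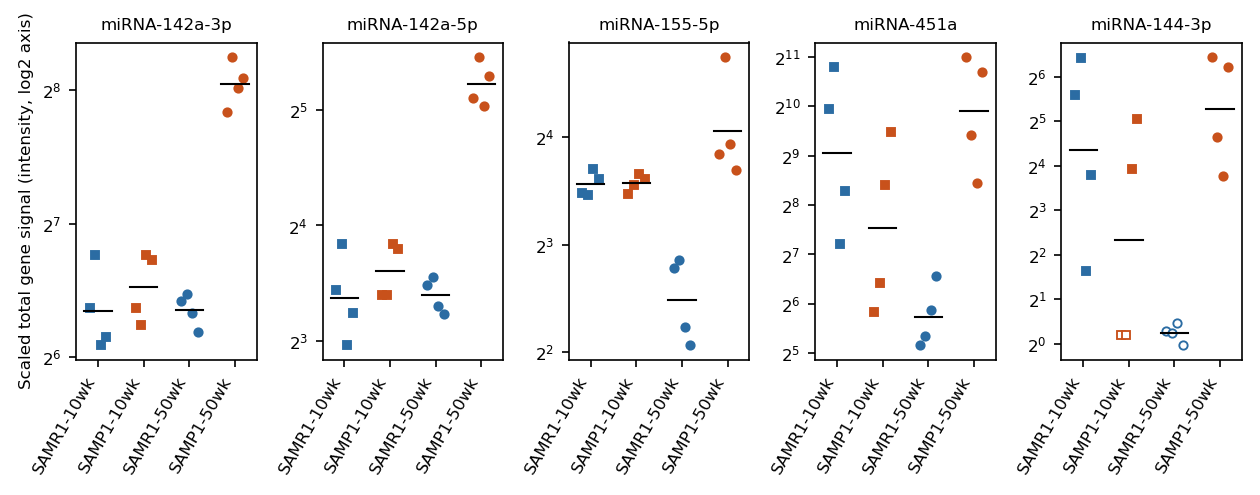
Scaled total gene signal (log2 axes) per kidney in the 4 groups for the 5 miRNAs whose strain difference was not the same at both ages, squares for 10 weeks and circles for 50 weeks, open where undetected, with bars at the means of the log2 values. miRNA-155-5p and both arms of miRNA-142a separate the strains at 50 weeks and overlap at 10 weeks. The ages lay on different slides.

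Other strain differences were found at both ages. At 10 weeks 4 of 381 miRNAs (1.05%) passed the threshold, all higher in SAMP1-10wk, and 20 (5.25%) passed at the adjusted p, 15 higher (3.94%) and 5 lower (1.31%). Of the 16 miRNAs past the threshold at 50 weeks, 3 passed at 10 weeks too, miRNA-181d-5p, miRNA-3095-3p and miRNA-342-3p, and 12 had the same sign. miRNA-181d-5p was 4.27, 3.72, 3.68 and 4.26 in SAMR1-10wk and 8.07, 8.19, 8.32 and 8.35 in SAMP1-10wk. Its log2 difference was 1.05 at 10 weeks and 1.04 at 50 weeks, and the difference between ages was -0.01 (standard error 0.11, adjusted p = 0.986 from limma). miRNA-342-3p was undetected on all 4 SAMR1-10wk arrays and between 2.38 and 5.42 in SAMP1-10wk. miRNA-34a-5p, miRNA-181c-5p and miRNA-193b-3p differed by 0.72, 0.49 and 0.51 at 10 weeks, each past the adjusted p. For miRNA-503-5p the log2 difference at 10 weeks was 0.68 (adjusted p = 0.177), and the difference between ages was 0.50 (standard error 0.36, adjusted p = 0.462 from limma).

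Of the 16 miRNAs that the study's own tables name, 12 passed the threshold at 50 weeks, against 4.2% of all tested miRNAs. These were chosen on the same samples and are no independent evidence. The 4 that did not pass were miRNA-467a-3p, miRNA-802-5p, miRNA-3091-5p and let-7d-3p.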

How the data were processed

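The authors deposited 1-colour Agilent intensity files, made with Agilent Feature Extraction 12.0.3.1 per the labels (background-subtracted, not scaled between arrays), and a table of log2 values. That deposited log2 table holds log2 of the total gene signal minus 1 constant per array and the SAMR1-10wk mean per miRNA. The rule behind the constant is not known, and array medians were -1.15 to 0.22. Undetected miRNAs are listed at 0.1. GeneSpring GX scaling to the 90th percentile is named in the methods.

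Signals were scaled, floored and log2-transformed as described above. The 381 miRNAs that every array of some group of 4 detected were fitted with limma 3.58.1 in R 4.3.3 (1 mean per group over 16 arrays, empirical Bayes, Benjamini-Hochberg), and single values with exact two-sided permutation tests (scipy 1.17.1). Files were read with Python 3.11.15, pandas 2.3.3 and numpy 2.4.6, and drawn with matplotlib 3.10.9. The code was tested on simulated data. P-values measure the spread between 4 animals per group.

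Named miRNAs were those past the threshold, those detected on all arrays of 1 group only, the 10 per direction with the lowest adjusted p among those detected on all 8 arrays, and members of marker, family and cluster lists. Members and lists were chosen with earlier results of these data known. Lists had no test. The lists were those of leukocytes, erythroid cells, tubules, endothelium and smooth muscle, fibroblasts, other tissues, the miRNA-30, miRNA-200, miRNA-29, miRNA-181, miRNA-34 and let-7 families, the miRNA-503 and miRNA-17-92 clusters, the study's tables and 2 reference miRNAs. Alternatives were 18 settings of signal, background, scaling, filter, floor, test, fold limit, samples and replicate block, and each of the 16 arrays left out in turn. The normexp setting added an offset of 50 to each spot.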

Additional observations from a re-analysis of the deposited data

Results flagged for a closer look

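The strain difference was not the same at 50 and 10 weeks for 5 miRNAs, by limma's test of the difference between ages with a limit of 2-fold (11 without that limit). These differences were 1.51 for miRNA-142a-3p, 1.60 for miRNA-142a-5p, 1.56 for miRNA-155-5p, 5.68 for miRNA-451a and 7.04 for miRNA-144-3p on the log2 scale. The last 2 were lost in 10 and 11 of 16 fits that left out 1 array.

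Among 105 groups of 4 kidneys examined, 9 held a kidney far from the other 3 by Dixon's criterion, where chance gives about 5%. In SAMP1-50wk animal 2, miRNA-193a-3p was 173 (others 241 to 243), miRNA-212-3p 37.8 (59.0 to 61.4), miRNA-378a-3p 141 (198 to 209), miRNA-378b 145 (198 to 207) and miRNA-378d 168 (222 to 233). In the same kidney miRNA-204-5p was 23.3 (others 15.4 to 16.3), miRNA-342-3p 16.1 (5.58 to 6.62) and miRNA-467a-3p 0.801 (1.08 to 1.12). So 8 of the 9 were in 1 kidney. In SAMP1-50wk animal 1, miRNA-16-5p was 539 (others 512 to 514).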

How the results depend on the processing

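The number of miRNAs past the threshold at 50 weeks was 8 with the processed signal, 2 with the normexp correction, 69 without scaling, 6 among miRNAs detected on all 16 arrays, 10 with the methods' analysis of variance and Tukey's test after Benjamini-Hochberg adjustment and 75 without the fold limit. It ran from 14 to 28 with 1 array left out. The share of higher calls, 93.75% as reported, was 77.3% of 22 with the 90th percentile over all miRNAs and 39.1% of 23 after quantile normalization. Of the 16 miRNAs, 7, 2, 10, 6 and 10 were kept with the processed signal, normexp, quantile normalization, the filter on all 16 arrays and the adjusted Tukey's test. Members of the lists past the threshold numbered 8, 2, 22, 6 and 31 with the processed signal, normexp, no scaling, that filter and no fold limit. miRNA-142a-3p and miRNA-451a passed in all 18 alternatives and with any 1 array left out. The cause of these changes was not tested.

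For the difference between ages, the count of 5 was 2 with normexp, 10 (7 higher, 3 lower) with the 90th percentile over all miRNAs, 3 with the 75th percentile, 3 with no filter, 14 with the unadjusted analysis of variance, 11 without the fold limit and 2 to 6 with 1 array left out. With the animal number as a replicate block (correlation -0.0554) it was 3, miRNA-451a and miRNA-144-3p being lost, and the count at 50 weeks was 17, with all 16 among them. The 50-week groups share only the number 2, which does not pair animals.

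The median of all tested miRNAs, -0.06, was 0.57 without scaling, -0.25 with normexp, -0.21 and -0.12 with the other percentiles and -0.17 in the authors' table. Without scaling 42 of the 46 lower miRNAs turned positive, and all 9 let-7 and all 7 miRNA-30 members were positive. Among the 42 were miRNA-365-3p 0.19, miRNA-190a-5p 0.025, miRNA-378a-3p 0.12, miRNA-378a-5p 0.29, miRNA-378b 0.18, miRNA-378c 0.19, miRNA-378d 0.20, miRNA-193a-3p 0.14, miRNA-148b-3p 0.33, miRNA-324-5p 0.32, miRNA-26b-5p 0.41, miRNA-181a-5p 0.35, miRNA-181b-5p 0.11, miRNA-429-3p 0.43, let-7e-5p 0.39, let-7f-5p 0.46, miRNA-30a-3p 0.47 and miRNA-30e-3p 0.40. Relative to the median of that setting all 46 lower miRNAs stayed below. With normexp 19 of the 29 higher miRNAs turned negative, among them miRNA-342-3p -0.053, miRNA-3095-3p -0.090, miRNA-205-5p -0.066, miRNA-132-3p -0.14, miRNA-6981-5p -0.25, miRNA-1231-5p -0.27, miRNA-150-5p -0.058, miRNA-503-5p -0.24, miRNA-6971-5p -0.24, miRNA-181d-5p -0.20, miRNA-181c-5p -0.12, miRNA-193b-3p -0.087, miRNA-669f-3p -0.25 and miRNA-18a-5p -0.24. An offset of 50 was added to each spot in that setting before scaling, which pulls dim signals toward 1 value. The sign of a dim miRNA's difference there cannot be read as a strain difference. Relative to the median of that setting 26 of the 29 higher miRNAs stayed above. After quantile normalization miRNA-6971-5p was -0.00042.

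By spots well above background in place of detected miRNAs, the arrays differed by 926.5 spots (exact permutation test, two-sided, p = 0.0286). The strain difference in overall signal per array (summed, unscaled) was 39142.1 to 61355.7 with 1 array left out, at p = 0.0571 (exact permutation test), the smallest that 4 against 3 allow. Signals close to the lowest detected one limit the precision of miRNA-503-5p, miRNA-6971-5p and miRNA-1231-5p.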
